A study of Mus musculus with 6 samples.

Results

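Atp4b encodes the beta subunit of the gastric proton-potassium pump (H,K-ATPase), and in cold-exposed brown adipose tissue (BAT) its transcript was lower in mice given diphtheria toxin (DT) than in mice given phosphate-buffered saline (PBS). The genes described here are Atp4b, the alpha subunits of the H,K-ATPases (Atp4a and Atp12a) and the beta subunits of the sodium-potassium pump (Na,K-ATPase; Atp1b1, Atp1b2 and Atp1b3), which makes 6 genes of the 25206 features on the arrays. They were found by their Entrez gene numbers, and all 6 had a feature. Atp4b was chosen by its own log2 values, which were lower in DT than in PBS on these same arrays, so they are given as a description with no test. The other 5 were taken as its relatives, and for them the question was if they differ between DT and PBS as well.

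All arrays came from BAT of female FoxP3 DTR B6 mice, in which regulatory elements of Foxp3 drive the receptor for DT, so that the toxin kills regulatory T (Treg) cells throughout the body and not in BAT alone. The DT group (3 mice, DT 5, DT 9 and DT 16) and the PBS group (3 mice, PBS 12, PBS 18 and PBS 20) both carry this allele, and both spent 1 week in single cages at 22°C and 2 days at 4°C. The injections were intraperitoneal, on 2 consecutive days, with the cold starting after the first. No toxin-treated mice without the receptor were analysed here, and no age is given in the labels. The methods of the study name a milder cold than the labels, but its results give 4°C as the labels do. The labels were followed.

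The H,K-ATPase and the Na,K-ATPase are close relatives among the P-type pumps, which pass through a phosphorylated form while they move ions with the energy of ATP. Each is built from a large alpha subunit, which binds ATP and carries the ions, and a smaller glycosylated beta subunit, which the alpha subunit needs to fold and to reach the plasma membrane. In the stomach, Atp4a and Atp4b together form the pump that acidifies the gastric juice. The Na,K-ATPase works in every animal cell, where it keeps sodium low and potassium high, and its use of ATP contributes to heat production.

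Each array value is a log2 expression estimate for 1 gene, so that a difference of 1 is a 2-fold change. Values of different genes are not comparable as amounts of RNA, because each gene has its own probes. As a picture of the low end of the signal, genes that BAT of female mice is not known to use are given. The 8 measured Y-linked genes lay between 3.27 and 4.32 over the 6 arrays, and 11 genes of the retina and lens lay between 3.22 and 4.96.

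Atp4b was at 7.47, 6.98 and 6.89 in DT 5, DT 9 and DT 16, against 9.06, 8.85 and 9.20 in PBS 12, PBS 18 and PBS 20. The groups lay apart, with a gap of 1.38 between the highest DT value and the lowest PBS value, and DT 5 was the DT array nearest to PBS. The means were 7.11 ± 0.31 in DT and 9.04 ± 0.18 in PBS (SD, n = 3 mice each), a log2 difference of -1.92, or 3.79-fold lower in DT. This difference had rank 5 from the lowest among the 25206 features. In whole tissue, fewer cells that carry a transcript and less of it per cell cannot be told apart.

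**Figure D1:**
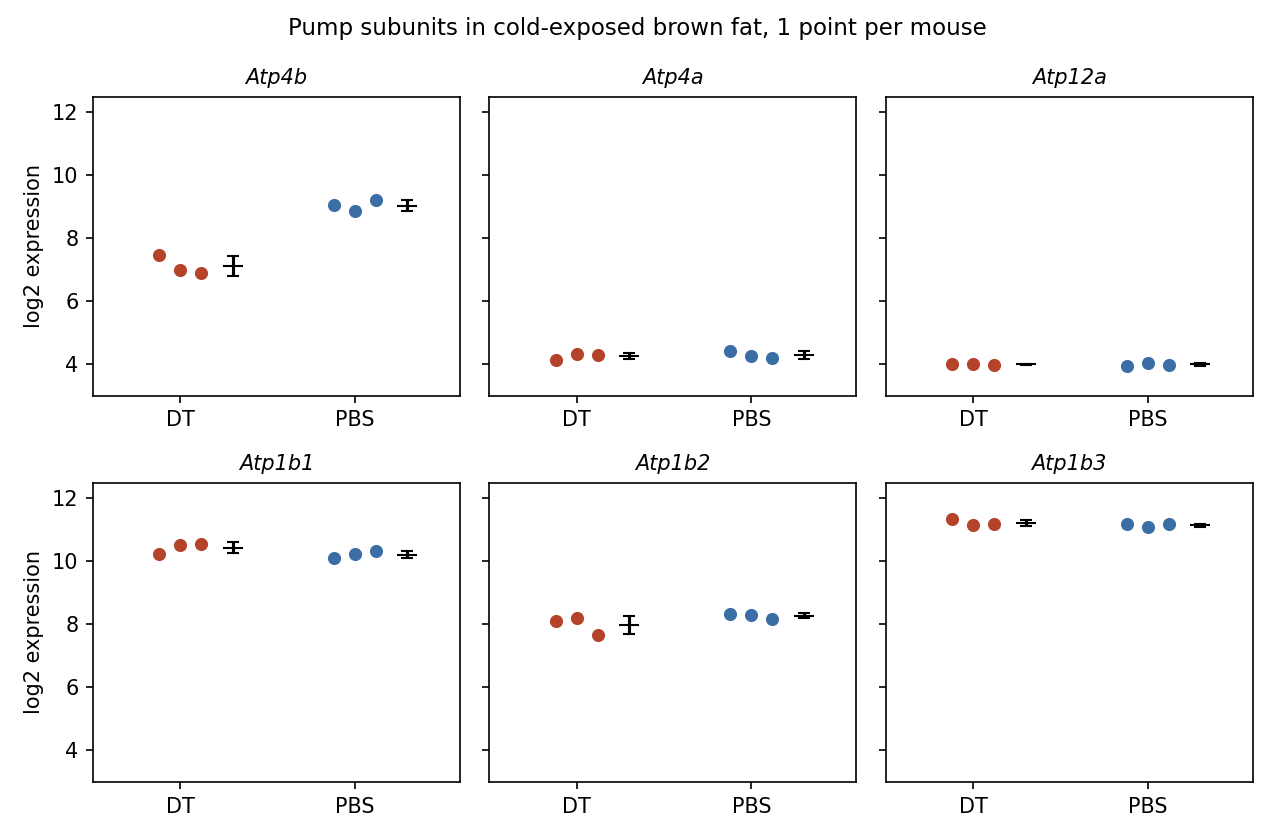
Log2 expression of the 6 pump subunits in each mouse (points; DT left, PBS right), with the mean and SD of each group (black, n = 3). Atp4b lies between 6.89 and 7.47 in DT and between 8.85 and 9.20 in PBS, while the groups of the other 5 genes overlap.

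Atp4a, the catalytic partner of Atp4b in the stomach, had a low signal in both groups. It was at 4.14, 4.33 and 4.28 in DT 5, DT 9 and DT 16 and at 4.43, 4.25 and 4.19 in PBS 12, PBS 18 and PBS 20. The groups overlapped, and all 6 values lay within the range of the retina and lens genes. The difference of -0.04 (SE 0.09, 95% confidence interval -0.26 to 0.18) did not pass the test (limma, adjusted p = 0.913). A transcript already at the low end of the signal has little room to fall on these arrays.

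Atp12a, the alpha subunit of the nongastric H,K-ATPase known from colon and other epithelia, was likewise low. Its values were 4.00, 4.02 and 3.99 in DT 5, DT 9 and DT 16, against 3.96, 4.04 and 3.98 in PBS 12, PBS 18 and PBS 20, and thus also within the range of the retina and lens genes. Its difference was 0.01 (SE 0.07, interval -0.15 to 0.17, adjusted p = 0.980 by limma). A signal of Atp4b well above that range was therefore measured beside signals of both H,K-ATPase alpha subunits inside it.

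Of the Na,K-ATPase beta subunits, none was called. Atp1b1, the beta subunit of most tissues, was at 10.25, 10.51 and 10.57 in DT 5, DT 9 and DT 16 and at 10.10, 10.23 and 10.33 in PBS 12, PBS 18 and PBS 20. DT 9 and DT 16 lay above all PBS arrays and DT 5 did not, so the groups overlapped. The difference was 0.22 (SE 0.11, interval -0.04 to 0.48, adjusted p = 0.460 by limma).

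Atp1b2, first known as an adhesion molecule on glia, was at 8.10, 8.21 and 7.65 in DT 5, DT 9 and DT 16, against 8.34, 8.30 and 8.19 in PBS 12, PBS 18 and PBS 20. DT 16 stood below the other 5 arrays, and DT 9 lay above PBS 20. The difference was -0.29 (SE 0.15, interval -0.63 to 0.05, adjusted p = 0.472 by limma), and it was -0.12 without DT 16. DT 16 also had the lowest skeletal muscle signal. The mean log2 value of 12 muscle genes was 8.90, 9.04 and 5.76 in DT 5, DT 9 and DT 16, against 7.0, 8.86 and 7.59 in PBS 12, PBS 18 and PBS 20, and none of the 12 was called by limma (0 at an unadjusted p under 0.05). With that mean as a covariate, chosen after seeing the data, the difference of Atp1b2 was -0.30 (SE 0.10, against 0.15 without it). Its adjusted p was 0.307 by limma, where the alternatives gave 0.307 to 0.767. The muscle mean was close in the groups (7.90 in DT and 7.82 in PBS), so the covariate could move a group difference only a little. A part of muscle in the difference of Atp1b2 was not tested.

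Atp1b3, a beta subunit found in many tissues and on leukocytes, had the narrowest values of the Na,K-ATPase beta subunits. It was at 11.34, 11.15 and 11.20 in DT 5, DT 9 and DT 16 and at 11.18, 11.10 and 11.19 in PBS 12, PBS 18 and PBS 20. The groups overlapped, with a difference of 0.07 (SE 0.08, interval -0.11 to 0.26, adjusted p = 0.798 by limma).

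Over all features, 0.444% were called lower and 1.29% higher, and nothing is read from this about Atp4b, which this comparison had chosen. An unadjusted p under 0.05 by limma was found for 3344 of the 25206 features. The counts at that level given for single lists are to be read beside this number. None of the other 5 subunits passed by limma (0 also at an unadjusted p under 0.05, and 0 by a linear model without moderation), against 1.73% of all features called in either direction. Their confidence intervals leave room for differences of up to 0.63 on the log2 scale, reached by the lower bound of Atp1b2, and none reaches a 2-fold change. None of these 5 had groups that lay apart, while 10.1% of all features had all DT values below all PBS values and 8.51% had them above.

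**Figure D2:**
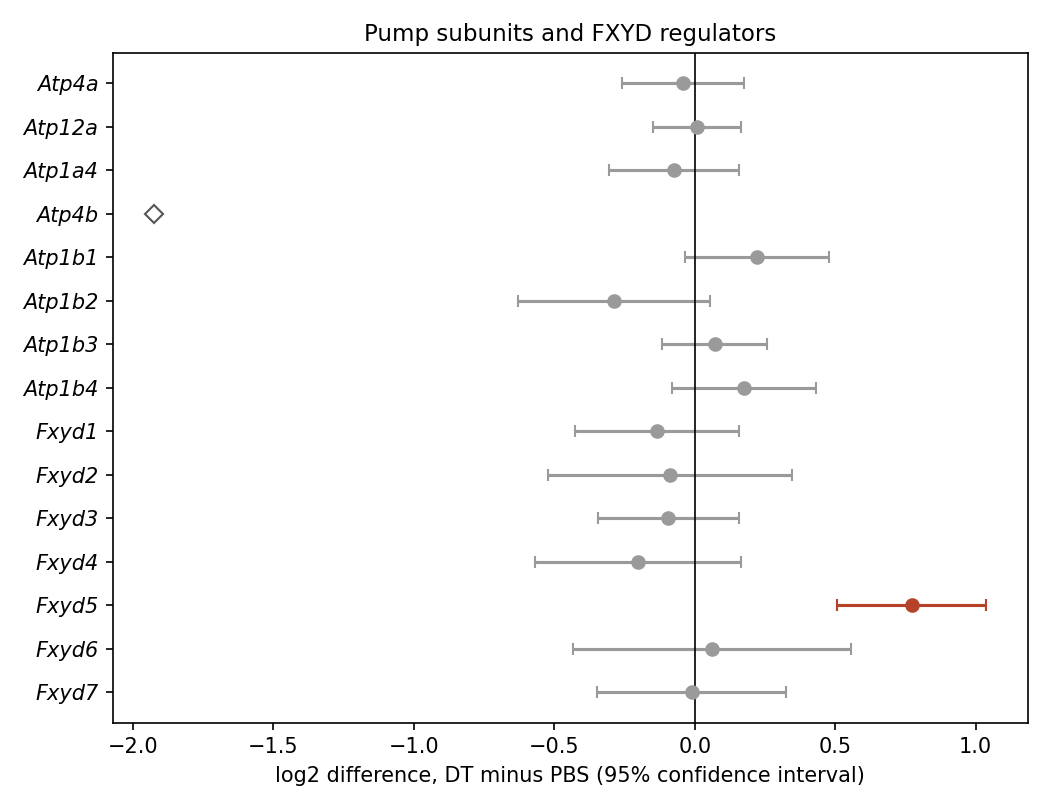
Log2 difference, DT minus PBS, for the alpha subunits, beta subunits and FXYD regulators, with 95% confidence intervals from the limma fit (red, called; grey, not called). Atp4b (open diamond, no interval because it was chosen for its value) stands at -1.92, Fxyd5 at 0.77, and the intervals of the other genes include 0.

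The signals of other stomach genes were looked at beside Atp4b. Of 17 genes that mark parietal or other gastric epithelial cells, Atp4a among them, none was called by limma (0 at an unadjusted p under 0.05), and the median difference was -0.01, as it was for all features. Apart from Esrrg, a nuclear receptor that BAT uses too (7.97 ± 0.15 in DT and 7.90 ± 0.14 in PBS, n = 3), the 16 others lay between 3.42 and 5.81 on all arrays. The mean over these 16 genes ranged from 4.26 to 4.34 in DT and from 4.25 to 4.41 in PBS, and the ranges of the groups overlapped. General epithelial genes were not called either (0 of 10, 0 at an unadjusted p under 0.05).

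**Figure D3:**
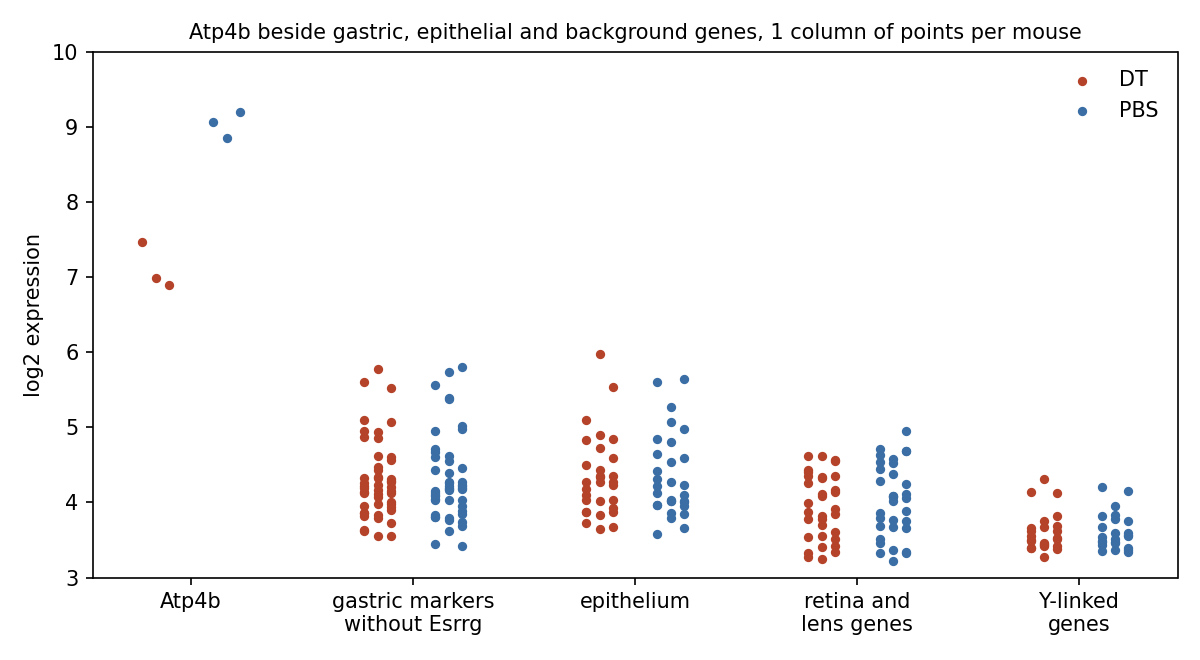
Log2 expression in each mouse (1 column of points per mouse; DT left, PBS right) of Atp4b, of 16 gastric marker genes without Esrrg, of 10 epithelial genes, of 11 retina and lens genes and of 8 Y-linked genes. The gastric markers lie between 3.42 and 5.81 in both groups, in contrast to Atp4b, whose groups are apart.

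Genes with which Atp4b works in acid secretion were examined as a list of 17. None was called by limma, and the median difference was -0.03. An unadjusted p under 0.05 was reached by 2 of them, as by 3344 of all 25206 features. The smallest unadjusted p was that of Ezr, the membrane linker ezrin, at 7.17, 7.44 and 7.18 in DT 5, DT 9 and DT 16 against 6.52, 6.81 and 6.91 in PBS 12, PBS 18 and PBS 20. All DT values of Ezr were above PBS, but its difference of 0.52 (SE 0.13) did not pass (adjusted p = 0.128 by limma). Car2, a carbonic anhydrase that supplies protons, differed by -0.41 (SE 0.17, adjusted p = 0.365 by limma).

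The pattern of Atp4b over the 6 arrays was compared with that of every other feature, after centring each on its own mean. By root mean square distance on the log2 scale, the nearest named gene was Adap1, a GTPase-activating protein for Arf proteins, at a distance of 0.18. It was at 7.18, 6.26 and 6.19 in DT 5, DT 9 and DT 16 and at 8.35, 8.17 and 8.32 in PBS 12, PBS 18 and PBS 20. As with Atp4b, DT 5 was the DT array nearest to PBS, a likeness that the choice by distance favours. Next came the neurotrophin receptor Ntrk3 (distance 0.27), 2310069B03Rik (0.29), the sorting receptor Sorcs2 (0.29) and Ttc25, which is needed for the dynein arms of motile cilia (0.30). Their differences were -1.74 for Adap1, -1.53 for Ntrk3, -1.36 for 2310069B03Rik, -2.00 for Sorcs2 and -2.24 for Ttc25. In each of the 5 the DT values lay below the PBS values, which follows from being chosen for likeness to Atp4b. A further feature without a gene symbol was among the nearest 5 of all features.

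The genes next to Atp4b in the reference gene order of the mouse (GRCm38.p6) were read from the same fit. None of the 3 measured genes on either side was called by limma, and Dcun1d2 and Tfdp1 had an unadjusted p under 0.05. Grk1, the rhodopsin kinase gene that is the next measured gene on one side, was at 3.58 to 3.68 in DT and at 3.64 to 3.75 in PBS, and differed by -0.05 (SE 0.07, adjusted p = 0.868 by limma). On the other side Tfdp1, a partner of E2F transcription factors, was at 9.05, 8.84 and 8.73 in DT 5, DT 9 and DT 16, against 9.11, 9.17 and 9.15 in PBS 12, PBS 18 and PBS 20. All DT values of Tfdp1 lay below PBS, yet its difference of -0.27 (SE 0.10) did not pass (adjusted p = 0.276 by limma). Farther out, Dcun1d2, which takes part in cullin neddylation, differed by -0.33 (SE 0.07, adjusted p = 0.0667 by limma) with all DT values below PBS. Tmco3 differed by -0.17 and Tmem255b by -0.22, with groups that overlapped. Gas6, a ligand of the TAM receptors, differed by 0.18 with all DT values above PBS. Over all features, 10.1% had all DT values below PBS and 8.51% had them above. The differences of these neighbours lay between -0.33 and 0.18, beside -1.92 for Atp4b.

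Beside the 6 genes, 82 measured genes of the pump family, its regulators and its transport partners were followed. A total of 3 of them were called, all higher in DT (3.66%, against 1.29% of all features called higher), and 0 were called lower (0.444% of all features). The groups lay apart with DT above PBS in 13 genes (15.9%, against 8.51% of all features) and with DT below PBS in 4 (4.88%, against 10.1%). Their median difference was 0.03, and that of all features was -0.01. The count of 3 depended on single mice. It was 0 without DT 5, DT 16, PBS 12 or PBS 20, 1 without DT 9 (Atp8b4) and 2 without PBS 18 (Fxyd5 and Atp10d).

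**Figure D4:**
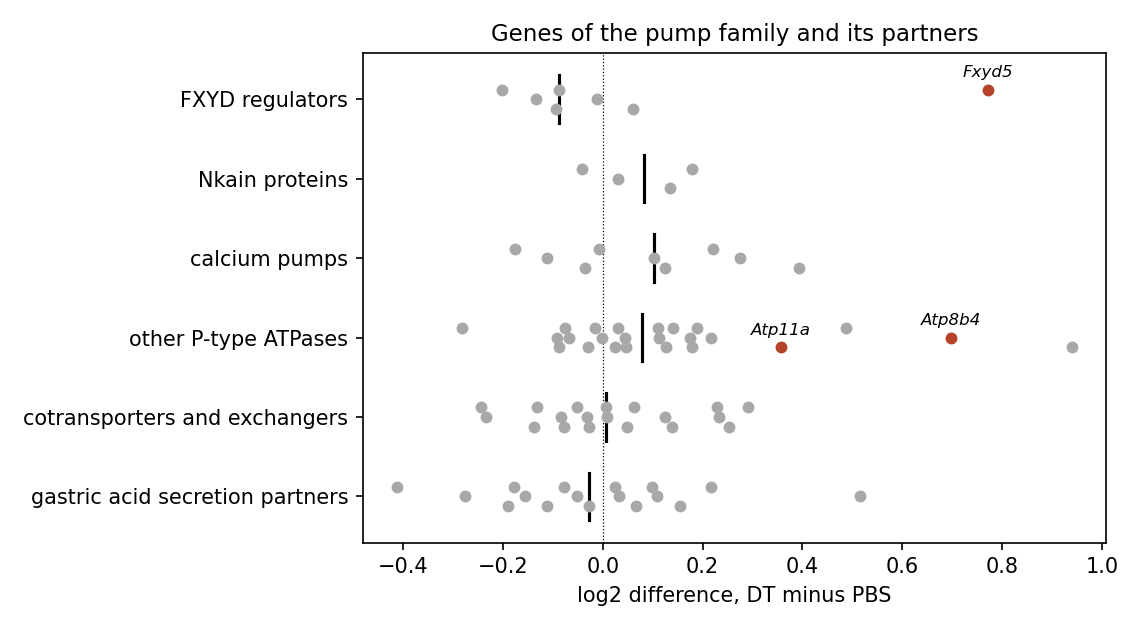
Log2 difference, DT minus PBS, of each measured gene (points) in 6 lists of the pump family and its partners, with the median of each list (black bar). The called genes, Fxyd5 (0.77), Atp8b4 (0.70) and Atp11a (0.36), are red and labelled, and the others are grey.

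FXYD proteins are small membrane proteins that bind the Na,K-ATPase and tune its affinity for ions. Of 7 measured FXYD genes 1 was called, higher in DT (14.3%, against 1.29% of all features). This was Fxyd5, which encodes dysadherin, a protein that also weakens cell adhesion. It was at 10.24, 10.49 and 10.19 in DT 5, DT 9 and DT 16, against 9.49, 9.70 and 9.42 in PBS 12, PBS 18 and PBS 20. All DT values were above all PBS values, and the difference was 0.77 (SE 0.11, 1.71-fold, adjusted p = 0.0236 by limma). The call was lost without DT 5, DT 9, DT 16, PBS 12 or PBS 20, with adjusted p of 0.0591 to 0.0962, and without moderation (adjusted p = 0.19, the highest over the alternatives, where the lowest was 0.00159), while the difference stayed between 0.68 and 0.85 in all 6 fits with 1 array left out.

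Some macrophage and fibroblast genes were higher in DT as well. Of 15 measured macrophage genes 4 were called, all higher in DT (26.7%, against 1.29% of all features), and 11 were not, with differences over the list of -0.21 to 2.45. Their mean log2 value ranged from 7.66 to 7.79 in DT and from 6.84 to 7.17 in PBS. Of 8 measured fibroblast genes 4 were called higher (50%) and 4 were not, with differences of 0.34 to 1.16 and a mean of 9.93 to 10.12 in DT and 9.11 to 9.55 in PBS. Over all genes and arrays, values lay between 4.60 and 11.16 in the macrophage list and between 7.48 and 12.05 in the fibroblast list. Their part in the difference of Fxyd5 was not tested.

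The other FXYD genes did not pass. Fxyd1, phospholemman, the regulator of heart and skeletal muscle, was at 10.51, 10.90 and 10.65 in DT 5, DT 9 and DT 16 and at 10.89, 10.65 and 10.92 in PBS 12, PBS 18 and PBS 20, with groups that overlapped (difference -0.13, interval -0.43 to 0.16). Fxyd2, the gamma subunit of the kidney, differed by -0.09, Fxyd3 by -0.09 and Fxyd4, a regulator of the collecting duct, by -0.20. Fxyd6 and Fxyd7, both best known from the nervous system, differed by 0.06 and -0.01. The adjusted p of these 6 genes lay between 0.679 and 0.987 by limma, and each had overlapping groups.

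Of the Na,K-ATPase alpha subunits only Atp1a4, the sperm isoform, was analysed here. It was at 4.171, 4.397 and 4.191 in DT 5, DT 9 and DT 16 and at 4.30, 4.46 and 4.22 in PBS 12, PBS 18 and PBS 20. Its difference was -0.07 (SE 0.10, adjusted p = 0.839 by limma), at a signal within the range of the retina and lens genes. Atp1b4, a beta-type protein of muscle that in placental mammals has left the pump and lies in the nuclear membrane, was at 3.97 to 4.13 in DT and at 3.77 to 4.11 in PBS, with a difference of 0.18 (SE 0.11, adjusted p = 0.581 by limma). The Nkain genes, whose products interact with the Na,K-ATPase beta subunit, gave 0 calls of 4 (0 at an unadjusted p under 0.05), with the largest difference in Nkain3 (0.18, SE 0.14) and the next in Nkain1 (0.13, SE 0.14).

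Further P-type pumps hold the other 2 called genes. Measured were 24 genes for lipid flippases, copper pumps, Atp13a pumps and the flippase chaperones of the Tmem30 family. Of these, 2 were called, both higher in DT (8.33%, against 1.29% of all features), and the median difference was 0.08. Atp8b4, a member of the flippase family, was at 4.67, 4.37 and 4.71 in DT 5, DT 9 and DT 16, against 3.85, 3.89 and 3.92 in PBS 12, PBS 18 and PBS 20. Its groups lay apart (difference 0.70, SE 0.10, adjusted p = 0.0251 by limma), at a signal in the range of the retina and lens genes. Its call was lost with any 1 array left out except DT 9, with adjusted p of 0.0627 to 0.102.

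Atp11a, which moves phosphatidylserine to the inner leaflet of the plasma membrane, was at 8.26, 8.27 and 8.24 in DT 5, DT 9 and DT 16, against 7.88, 7.90 and 7.92 in PBS 12, PBS 18 and PBS 20. The spread within groups was small, with SDs of 0.017 and 0.015 in DT and PBS, and the difference was 0.36 (SE 0.06, adjusted p = 0.0476 by limma). Its call was lost with any 1 array left out, with adjusted p of 0.103 to 0.169. It was also lost with an intensity trend (0.0534), without the 25% of features with the lowest signal (0.0564) and with the muscle covariate (0.0942), in a range of 0.0318 to 0.169 over the alternatives. Atp10d, another flippase, had a larger difference of 0.94 (SE 0.23) but also a larger spread, with 7.44, 7.44 and 7.93 in DT 5, DT 9 and DT 16 and 6.38, 7.16 and 6.45 in PBS 12, PBS 18 and PBS 20, and did not pass (adjusted p = 0.124 by limma). Atp10d is named here after its value was seen.

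The calcium pumps, which share the P-type cycle, gave 0 calls of 9 by limma, with 3 at an unadjusted p under 0.05 and a median difference of 0.10. Atp2a3, the endoplasmic reticulum pump known from blood cells, was at 7.009, 6.995 and 6.926 in DT 5, DT 9 and DT 16 and at 6.49, 6.42 and 6.85 in PBS 12, PBS 18 and PBS 20 (difference 0.39, SE 0.12, adjusted p = 0.213 by limma). Atp2b1, a plasma membrane pump of most cells, differed by 0.28 (SE 0.09, adjusted p = 0.228 by limma). Both had DT values above PBS values. Atp2a1, the calcium pump of fast skeletal muscle, is named for its spread, which was seen first. It ranged over 3.38 on the log2 scale, with 11.27, 11.37 and 7.99 in DT 5, DT 9 and DT 16 against 9.25, 10.99 and 9.72 in PBS 12, PBS 18 and PBS 20. It was high in the arrays with high muscle signal and lowest in DT 16, and the groups overlapped.

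**Figure D5:**
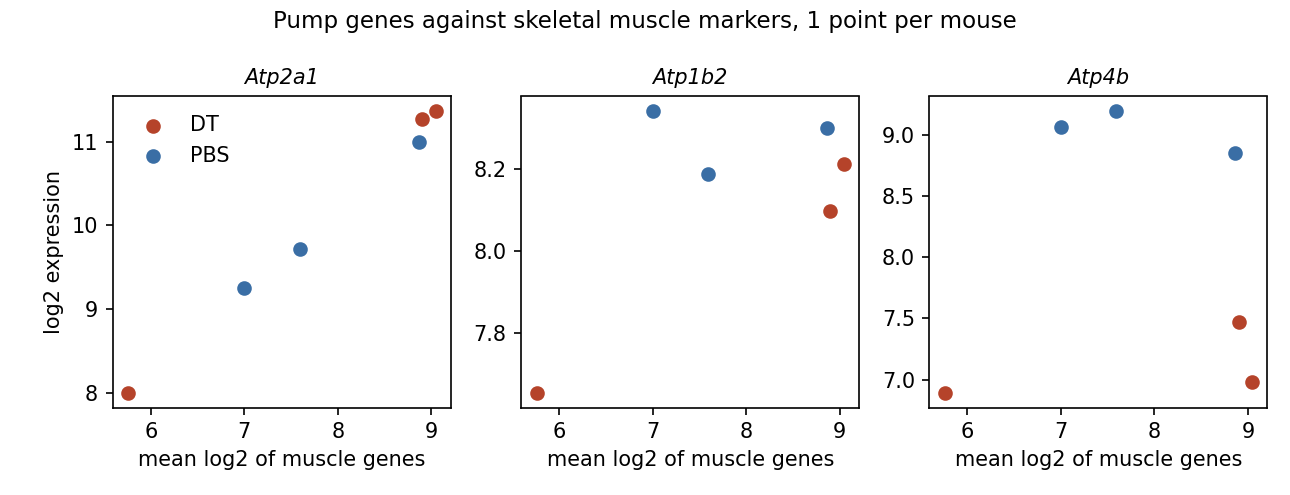
Log2 expression of Atp2a1, Atp1b2 and Atp4b (vertical axes, each with its own range) against the mean log2 value of 12 skeletal muscle genes (horizontal axis), 1 point per mouse. DT 16 has the lowest muscle mean (5.76) and the lowest value of each of the 3 genes, and DT 9 has the highest muscle mean (9.04), with Atp4b at 6.98.

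The difference of Atp4b was -1.93 with the muscle mean as a covariate and -1.81 without DT 16. As the muscle mean was close in the groups (7.90 in DT and 7.82 in PBS), the covariate could move this difference only a little. A part of muscle in it was not tested. Over all alternatives, some of which cannot change a difference of means, the difference of Atp4b lay between -2.10 and -1.81.

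Cation-chloride cotransporters and sodium exchangers were not called either (0 of 19 by limma, 2 at an unadjusted p under 0.05, median difference 0.01). Slc12a2, the sodium-potassium-chloride cotransporter, was at 11.03, 11.22 and 11.35 in DT 5, DT 9 and DT 16 and at 10.79, 10.95 and 10.98 in PBS 12, PBS 18 and PBS 20. Its groups lay apart, with a difference of 0.29 (SE 0.10, adjusted p = 0.284 by limma). Slc8b1, the sodium-calcium exchanger of mitochondria, differed by 0.23 (SE 0.09, adjusted p = 0.355 by limma).

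For the tissue as a whole, genes of brown adipocytes were high and not called (0 of 13, 2 at an unadjusted p under 0.05). Their mean log2 value was 11.89 to 12.15 in DT and 11.98 to 12.06 in PBS. All DT values lay below PBS in 4 of the 13 (30.8%, against 10.1% of all features) and above in 2 (15.4%, against 8.51%). Endothelial genes were also high and not called (0 of 10, 2 at an unadjusted p under 0.05). The genes of Schwann cells and nerve gave 0 calls of 10, T cells 0 of 11, B cells 0 of 7 and red blood cells 0 of 4. At an unadjusted p under 0.05 these 4 lists held 0, 1, 1 and 0 genes. Foxp3, the gene of the targeted cells, was at 4.297, 4.399 and 4.488 in DT 5, DT 9 and DT 16 and at 4.55, 4.41 and 4.72 in PBS 12, PBS 18 and PBS 20. This difference of -0.16 (SE 0.10, adjusted p = 0.587 by limma), at a signal in the range of the retina and lens genes, neither bears out the labels nor goes against them.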

How the data were processed

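BAT RNA of 6 mice was measured on Affymetrix arrays, 1 per mouse. The authors deposited 1 log2 value per array and Entrez gene, from probes regrouped by a custom chip definition. RMA is named in the submitters' processing notes, and quantile normalization in the study's methods. All arrays therefore share 1 distribution (median 5.10, range 3.01 to 14.1), and a shift of all genes is removed. Apart from this, low signals can be compressed on arrays, which was not tested here. Arrays have no read depth, and their number limits the precision. The array design, the probe sequences and cross-hybridisation between related pumps were not checked, and a genome build is not given in the sources used here. Of 25206 features, 23185 carried 1 symbol in GEO's annotation of the platform (brought up to date through Entrez numbers), and 2021 did not and were tested but not named.

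DT was tested against PBS over all features with limma 3.58.1 (lmFit, eBayes; R 4.3.3), 2-sided, with Benjamini-Hochberg adjustment and a threshold of 0.05; the fit was checked on simulated data. "Called" means past that threshold, differences are DT minus PBS, errors are SD or the SE of the fit, and intervals are moderated 95% intervals. The study's own mixed model was not repeated. The numbers in the titles name animals and pair no samples. The members, lists and tests were chosen with earlier results of these data known. Named were the 6 subunits, all alpha, Atp1b4 and FXYD genes measured, the called members of each other pump family list (or the 2 with the smallest p), the 5 nearest patterns, the 3 neighbours on each side and Foxp3. Alternatives were repeated quantile normalization, median centring, cyclic loess, a robust prior that follows intensity, array weights, no moderation, 2 filters on low signal, other thresholds, each array left out and, added after seeing the data, a muscle covariate. Figures were drawn with matplotlib 3.10.9.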

Additional observations from a re-analysis of the deposited data

How the results depend on the processing

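The log2 difference of Atp4b lay between -2.10 and -1.81 over 15 alternatives. The intensity trend, no moderation and the filters on low signal cannot change a difference of means. Median centring and repeated quantile normalization hardly can on arrays that share 1 distribution. As Atp4b was chosen for this difference, the range is given as a description only. None of the other 5 subunits was called under any of 17 alternatives, although the filter at the median signal left out Atp4a and Atp12a. An unadjusted p under 0.05 by limma was reached by 0 of these 5 in the main fit. It was reached by 1 of them with the robust prior that follows intensity, without DT 5, without DT 9 and with the muscle covariate. Values near 0 changed sign with 1 array left out: Atp4a ranged from -0.0927 to 0.0264 and Atp12a from -0.0111 to 0.033. The count of 436 called features was 659 when the prior followed intensity and was robust, 736 at an adjusted p below 0.1, 177 with a 2-fold difference and an unadjusted p below 0.01, and 135 to 374 with 1 array left out. Without moderation it was 0 (2986 at an unadjusted p under 0.05). The count of 3 among the 82 family, regulator and partner genes was 0 without moderation (10 at an unadjusted p under 0.05), 0 with the 2-fold criterion and 0 to 2 with 1 array left out. The cause of these shifts was not tested. The fits with 1 array left out also had fewer arrays, which was not separated from the weight of single mice. No paired analysis was possible because the groups share no animal number. With 3 mice per group, differences of the Na,K-ATPase beta subunits within their intervals remain possible. Genes at the low end of the signal, such as Atp4a and Atp12a, had little room to fall.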
